A study of Mus musculus with 6 samples.

Results

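The ETS family of transcription factors was examined in activated splenic CD8+ T cells (CD8-TC) of Runx3-/- and WT mice, through the 10 members Ets1, Ets2, Fli1, Elf1, Elf2, Elf4, Gabpa, Elk3, Etv3 and Etv6. A member was an array row paired with that gene symbol alone, and where a gene had several such rows the row with the highest mean over the arrays was kept. The members are 10 of 19938 genes named by a single symbol on the array, and all 10 were among the 10021 genes bright enough to be tested.

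The arrays came from ICR mice labelled male and aged 6 weeks, 3 of genotype Runx3-/- and 3 of genotype Runx3+/+ (WT). The question was which genes respond when Runx3, the RUNX factor of cytotoxic lymphocytes, is lost. Cells of both genotypes were selected on anti-CD8 beads and activated with plate-bound anti-CD3 and soluble anti-CD28 for 2 days. Growth in human IL-2 (100 units per ml) followed for 4 days. Only Runx3-/- cells were also sorted by flow cytometry, once before culture to take out CD8+CD11c+ dendritic cells and once after it to take out CD4+CD8- T cells, so that sorting and genotype cannot be told apart. The study's methods call the 3 arrays of a genotype biological repeats, and no source used here says whether each was a single mouse.

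ETS proteins share a winged helix-turn-helix DNA-binding domain that reads a GGAA core, and what a given member does depends largely on its partners and on signals that phosphorylate it. In lymphocytes ETS and RUNX proteins often sit side by side on the same enhancers, and Ets1 and Runx1 are the textbook pair, each easing the binding of the other. ETS factors also act in T cells on genes of cytokine receptors, of antigen receptor signalling and of exit from the cell cycle.

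Some arrays stood apart or went against their labels. Runx3 itself read 8.91, 9.11 and 9.27 (log2) on the 3 arrays labelled Runx3-/-, against 8.77, 8.26 and 9.16 on the WT arrays. The probes span the transcript and no source used here says which part of Runx3 was disrupted, so the gene cannot check the labels and the arrays are called KO-labelled (KO1, KO2 and KO3). Xist, the RNA that coats the silenced X chromosome, was at 10.6 on WT1, an array labelled male, and at 3.31 to 3.40 on the other 5. Of genes on the Y chromosome, Eif2s3y was at 3.93 on WT1 (9.24 or more on the others), Uty at 3.91 (7.10 or more) and Kdm5d at 3.68 (5.92 or more). In a principal component analysis KO2 (-42.4) and WT2 (40.3) were farthest apart on component 1, with 49.6% of the variance. Pan-T-cell and CD8 markers were high on every array, with linear values summing to between 13905.7 and 17068.2 on KO-labelled arrays and between 13254.3 and 15128 on WT arrays over 6 genes. None of 7 dendritic cell markers reached the median of the whole table (4.26) on any array, and their summed linear values were 74.4 to 84.2 on KO-labelled and 75.2 to 83.7 on WT arrays. Within this dim range Itgax (CD11c) was lower without overlap, at 3.31 to 3.42 on KO-labelled and 3.48 to 3.72 on WT arrays. The groups of the other dendritic cell markers overlapped. Of 7 macrophage and monocyte markers Itgam was lower without overlap, at 3.17 to 3.29 on KO-labelled and 3.58 to 4.24 on WT arrays, below the table median. Cd68, the only one tested, was at -0.82 (limma adjusted p = 0.361), and its groups overlapped, as did those of the others. Of 5 granulocyte markers only Ly6g was tested (0.13, overlapping groups). In each of the NK cell, B cell and endothelial marker lists 1 gene passed the threshold of the study's methods with groups that did not overlap. These were Klrb1c of 5 NK cell markers (-1.56 in KO-labelled minus WT arrays, on the log2 scale), Cd79b of 7 B cell markers on the array (-0.93) and Pecam1 of 4 endothelial markers (1.42). Bright enough to test were 3, 1 and 1 genes of the NK cell, B cell and endothelial lists. Of all tested genes 3.97% passed that threshold upward and 4.33% downward. Groups did not overlap for 11.6% of tested genes upward and 10.9% downward. The other markers of these lists were mixed. Ncr1 ran with Klrb1c without overlap, at 3.30 to 3.41 on KO-labelled and 3.49 to 3.51 on WT arrays, all below the table median. Cd79a ran opposite to Cd79b without overlap, at 3.47 to 3.52 on KO-labelled and 3.16 to 3.28 on WT arrays, all below the table median. The NK cell markers Itga2 (0.11) and Klre1 (-0.23) had overlapping groups. Summed linear values were 78.3 to 105.0 on KO-labelled and 99.5 to 141.3 on WT arrays for the NK list, and 89.6 to 105.4 on KO-labelled and 109.3 to 134.6 on WT arrays for the B cell list. For the endothelial list they were 499.9 to 587.5 on KO-labelled and 111.7 to 369.6 on WT arrays, with Cdh5, Kdr and Emcn below the table median on every array, as were Ms4a1 of the B cell list and Ncr1 of the NK list. The part of such cells in the ETS values was not tested.

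Across the 10 members, Ets2 stood out and Ets1 followed, both higher in KO-labelled CD8-TC, while the other 8 members did not pass either threshold. Only Ets2 passed an adjusted p of 0.05 (limma, Benjamini-Hochberg over 10021 genes), a threshold that 0.269% of all tested genes passed upward and 0.359% downward. At the threshold of the study's methods, which asks for a 1.5-fold change and an unadjusted p of 0.05, Ets1 and Ets2 were higher and 0 members lower, where 3.97% of tested genes were higher and 4.33% lower (8.3% in all). The 3 arrays of each group did not overlap for 3 members, Ets1, Ets2 and Fli1, all higher, against 11.6% of tested genes higher and 10.9% lower. The log2 difference, KO-labelled minus WT, was above 0 for 8 members, against 48% of tested genes, and below 0 for Elf4 and Elk3. Its median was 0.23 over the members and -0.01 over all tested genes. In bulk RNA, fewer cells of a type and less RNA per cell cannot be told apart, which holds for every value here.

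**Figure D1:**
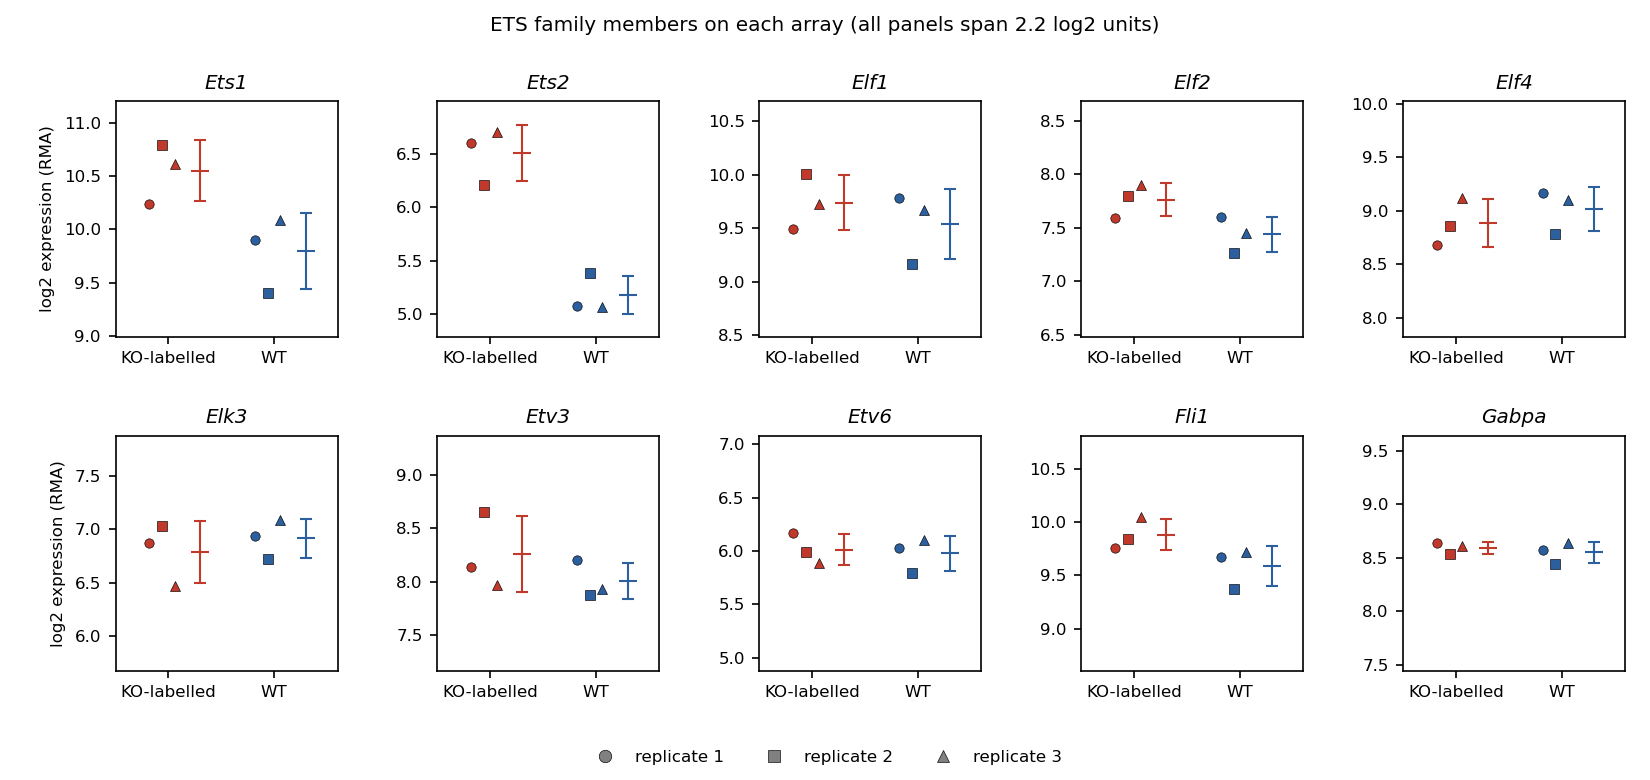
Log2 expression of each ETS member on each array, KO-labelled (red, left) and WT (blue, right), with circles, squares and triangles for replicates 1, 2 and 3 and bars for the mean and SD (n = 3); all panels span the same number of log2 units. Ets2 is the member whose groups lie farthest apart, with 6.21 to 6.71 on KO-labelled and 5.07 to 5.38 on WT arrays, and WT2 is the lowest array in 7 of the 10 panels.

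Ets1 and Ets2 are the founding pair of the family. Both carry a Pointed domain and are switched on by Ras and MAP kinase signalling through phosphorylation beside it. Ets2 lies on mouse chromosome 16. Its promoter is shown because it belongs to the member that changed most, as the 250 bases before the annotated start from RefSeq (GRCm38.p6, plus strand, chr16:95702157-95702406), all in lower case since neither motif searched for below is in it.
Ets2 promoter: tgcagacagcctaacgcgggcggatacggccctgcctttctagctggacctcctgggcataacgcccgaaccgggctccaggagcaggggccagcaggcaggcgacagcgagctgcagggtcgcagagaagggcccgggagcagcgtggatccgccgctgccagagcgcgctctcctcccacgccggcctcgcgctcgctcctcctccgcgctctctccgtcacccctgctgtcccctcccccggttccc

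Ets2 (transcript cluster 10437160) read 6.60, 6.21 and 6.71 on the KO-labelled arrays and 5.07, 5.38 and 5.07 on the WT arrays. Every KO-labelled array was above every WT array, and in both groups the array numbered 2 was the one nearest to the other group. The means were 6.51 ± 0.26 in KO-labelled CD8-TC and 5.18 ± 0.18 in WT CD8-TC (SD, n = 3 each). Ets2 rose by 1.33 on the log2 scale (SE 0.18, 95% interval 0.90 to 1.76, limma adjusted p = 0.0380), a 2.51-fold change. A larger change in either direction was seen in 1.81% of the tested genes. The difference stayed between 1.23 and 1.48 with each array left out in turn, but the adjusted p then lay between 0.0399 and 0.154 and was under 0.05 only without KO2. Without WT1, the array whose sex label was not borne out, Ets2 was 1.28 higher (limma adjusted p = 0.128), and without both arrays numbered 2 it was 1.58 higher (limma adjusted p = 0.0238).

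Ets1 (transcript cluster 10584142), the ETS factor best known from resting T cells, lies on chromosome 9. It read 10.24, 10.79 and 10.62 on the KO-labelled arrays and 9.90, 9.40 and 10.09 on the WT arrays. The groups did not overlap, with KO1 and WT3 close together and WT2 well below the rest. The means were 10.5 ± 0.28 in KO-labelled and 9.80 ± 0.36 in WT cells (SD, n = 3 each), a difference of 0.75 (SE 0.23, 95% interval 0.20 to 1.30, limma adjusted p = 0.245), or 1.68-fold. Ets1 thus passed the threshold of the study's methods and not the adjusted one. Without WT2 the difference was 0.55, under the 1.5-fold limit (log2 0.585), and without both arrays numbered 2 it was 0.43 (limma adjusted p = 0.362). Without WT1 it was 0.80 (limma adjusted p = 0.403).

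Fli1, a close relative of Erg that acts in blood stem cells and megakaryocytes, is the neighbour of Ets1 on chromosome 9. It read 9.76, 9.84 and 10.04 on KO-labelled arrays and 9.67, 9.38 and 9.72 on WT arrays. The groups did not overlap, but KO1 and WT3 were almost level. The difference was 0.29 (95% interval -0.08 to 0.66, limma adjusted p = 0.444), an interval that includes 0. Kirrel3, on the other side of Ets1, did not reach the table median on any array.

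The ELF members Elf1, Elf2 and Elf4 bind GGAA sites next to those of other lymphoid factors. Elf1 acts in human and mouse T cells on cytokine receptor genes, and Elf4 restrains division of CD8-TC in mice. Elf1 read 9.49, 10.004 and 9.72 on KO-labelled arrays and 9.78, 9.17 and 9.67 on WT arrays, a difference of 0.20 (95% interval -0.31 to 0.71, limma adjusted p = 0.693). The groups overlapped, KO1 being below WT1 and WT3. Without both arrays numbered 2 the sign of Elf1 turned, to -0.12.

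Elf2, which exists in activating and repressing forms, was the ELF gene nearest to a difference. It read 7.59, 7.80 and 7.90 on KO-labelled arrays and 7.60, 7.27 and 7.45 on WT arrays. The groups overlapped only through KO1 and WT1, which were nearly level. The difference was 0.33 (95% interval -0.04 to 0.69, limma adjusted p = 0.397). Over the alternative fits it ran between 0.22 and 0.41, though a change of filter, prior or replicate block alone cannot move it.

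Elf4 read 8.68, 8.86 and 9.12 on KO-labelled arrays and 9.17, 8.79 and 9.10 on WT arrays. The groups overlapped, and the difference was -0.13 (95% interval -0.55 to 0.29, limma adjusted p = 0.764). Elf4 is the only member on the X chromosome, and it was highest on WT1, the array with high Xist. Without WT1 the difference was -0.06, and the part of the sex of that sample in it was not tested.

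Elf2 was the only one of 8 members with a RefSeq promoter entry (11 entries in all) to hold a RUNX hexamer in the 250 bases before the start. The letters searched on both strands were TGTGGT, its variant TGTGGC, the CpG form TGCGGT and the CpG variant TGCGGC, and 38% of all 32851 such windows held at least 1 of them. The window of its first entry is shown for that reason, with the hexamers in capitals (GRCm38.p6, minus strand, chr3:51340645-51340894). TGCGGT lies 177 to 172 bases before the start and TGCGGC, on the opposite strand, 24 to 19 bases before it.
Elf2 promoter: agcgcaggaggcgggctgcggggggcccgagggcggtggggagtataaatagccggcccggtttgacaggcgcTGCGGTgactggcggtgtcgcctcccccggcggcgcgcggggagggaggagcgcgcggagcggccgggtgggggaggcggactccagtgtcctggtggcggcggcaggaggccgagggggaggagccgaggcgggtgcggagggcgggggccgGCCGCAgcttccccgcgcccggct
The second Elf2 entry also held 2 hexamers, both TGCGGC. A match describes letters in this window and no binding, and distant enhancers were not searched.

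Gabpa encodes the DNA-binding subunit of GABP, which works as a complex with a GABP beta subunit and serves genes of mitochondria and, in mouse T cells, the IL-7 receptor gene. It read 8.64, 8.53 and 8.61 on KO-labelled arrays and 8.57, 8.45 and 8.64 on WT arrays. The groups lay on top of each other, and Gabpa varied least among the members. The difference was 0.04 with a 95% interval of -0.26 to 0.35 (limma adjusted p = 0.905). Changes of more than 1.27-fold upward or below 0.835-fold downward lie outside that interval.

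The Gabpa promoter was the only member window to hold the ETS hexamer CCGGAA, which 12% of all windows held on either strand. It is shown for that site (GRCm38.p6, plus strand, chr16:84834874-84835123), which appears as TTCCGG in capitals, 92 to 87 bases before the start.
Gabpa promoter: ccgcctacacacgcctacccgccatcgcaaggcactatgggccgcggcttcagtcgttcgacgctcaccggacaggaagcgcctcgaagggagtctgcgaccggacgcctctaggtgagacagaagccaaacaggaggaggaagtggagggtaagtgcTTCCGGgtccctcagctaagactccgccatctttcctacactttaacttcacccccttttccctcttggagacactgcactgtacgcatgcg

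The remaining members are best known as repressors. Elk3, a ternary complex factor that joins serum response factor on DNA, read 6.87, 7.03 and 6.47 on KO-labelled arrays and 6.94, 6.72 and 7.08 on WT arrays. The groups overlapped, and the difference was -0.13 (95% interval -0.58 to 0.33, limma adjusted p = 0.791), with 0.03 when KO3 was left out. Etv3, a repressor linked to growth arrest in mouse macrophages, read 8.14, 8.66 and 7.98 on KO-labelled arrays and 8.20, 7.88 and 7.94 on WT arrays. Its difference of 0.25 (95% interval -0.24 to 0.74, limma adjusted p = 0.604) rested on KO2, the one array well above the rest, and was 0.05 without it. Etv6, a repressor that forms polymers through its Pointed domain and is needed for blood stem cells in the marrow, read 6.17, 5.99 and 5.88 on KO-labelled arrays and 6.03, 5.79 and 6.11 on WT arrays. Its groups overlapped, and the difference was 0.04 (95% interval -0.32 to 0.40, limma adjusted p = 0.937).

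**Figure D2:**
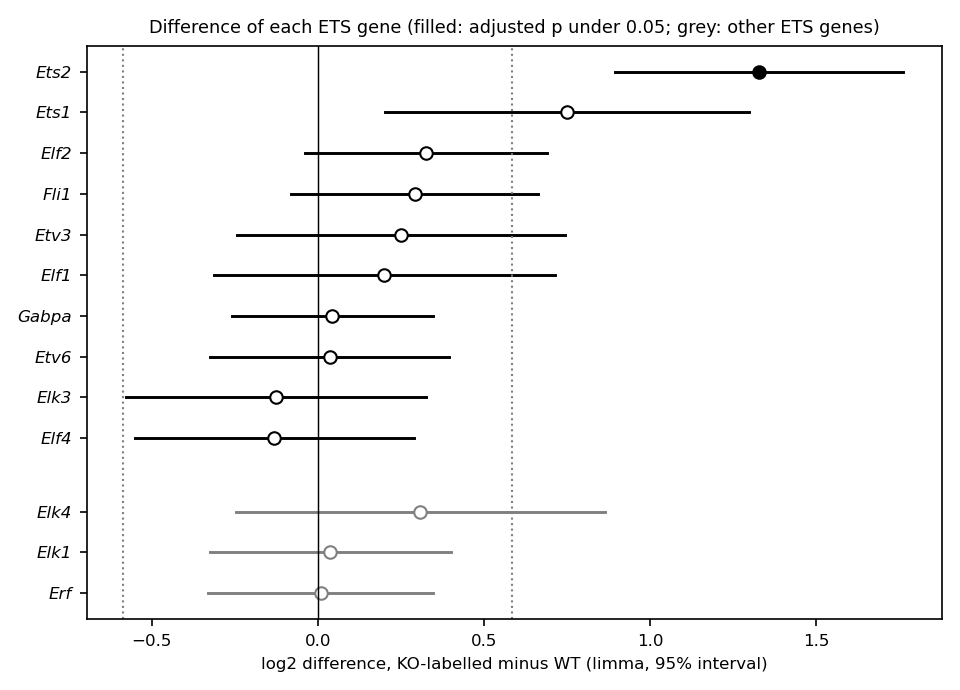
Log2 difference (KO-labelled minus WT) of each ETS member (black) and of the 3 other ETS genes that were tested (grey), as limma estimates with 95% intervals; the filled point is past an adjusted p of 0.05, and dotted lines mark a 1.5-fold change. The intervals of Ets2 (0.90 to 1.76) and Ets1 (0.20 to 1.30) do not include 0, and those of the other genes do.

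The arrays did not weigh evenly on the members. WT2 was the lowest array for 7 of 10 members (Ets1, Elf1, Elf2, Etv3, Etv6, Fli1 and Gabpa), whereas it was lowest for 28% of all tested genes. KO2 was the highest for Ets1, Elf1 and Etv3 and KO3 for Ets2, Elf2 and Fli1, against 18.7% and 19.6% of tested genes. KO2 was the lowest for 0 members, while it was lowest for 34.8% of tested genes. When each gene was centred on its 6-array mean, the members averaged 0.07 on KO1, 0.22 on KO2 and 0.15 on KO3, against -0.06 on WT1, -0.33 on WT2 and -0.06 on WT3. On the same measure 21 S phase genes averaged 0.69, -1.41 and 0.47 on KO1, KO2 and KO3, and 0.14, 0.53 and -0.42 on the WT arrays. KO2 was thus low in cell-cycle genes where it was high in the ETS members, and WT2 the reverse. The median of the whole array was also highest on KO2 (4.35) and lowest on WT2 (4.15). With array medians subtracted the median difference over the members was 0.16, and after quantile normalization it was 0.22. The part of culture growth in the ETS values was not tested beyond a fit that took the average of G2/M genes as a covariate. In that fit Ets2 was at 1.34 (limma adjusted p = 0.0194) and Ets1 at 0.74 (limma adjusted p = 0.162). The centred G2/M average was 0.62, -1.42 and 0.75 on KO1, KO2 and KO3 and 0.18, 0.25 and -0.36 on the WT arrays. It varied mostly within the groups, so the fit could barely move a difference between them and cannot decide the part of growth. Without both arrays numbered 2, the median difference over the members was 0.00, and Ets2 alone passed the threshold of the study's methods.

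**Figure D3:**
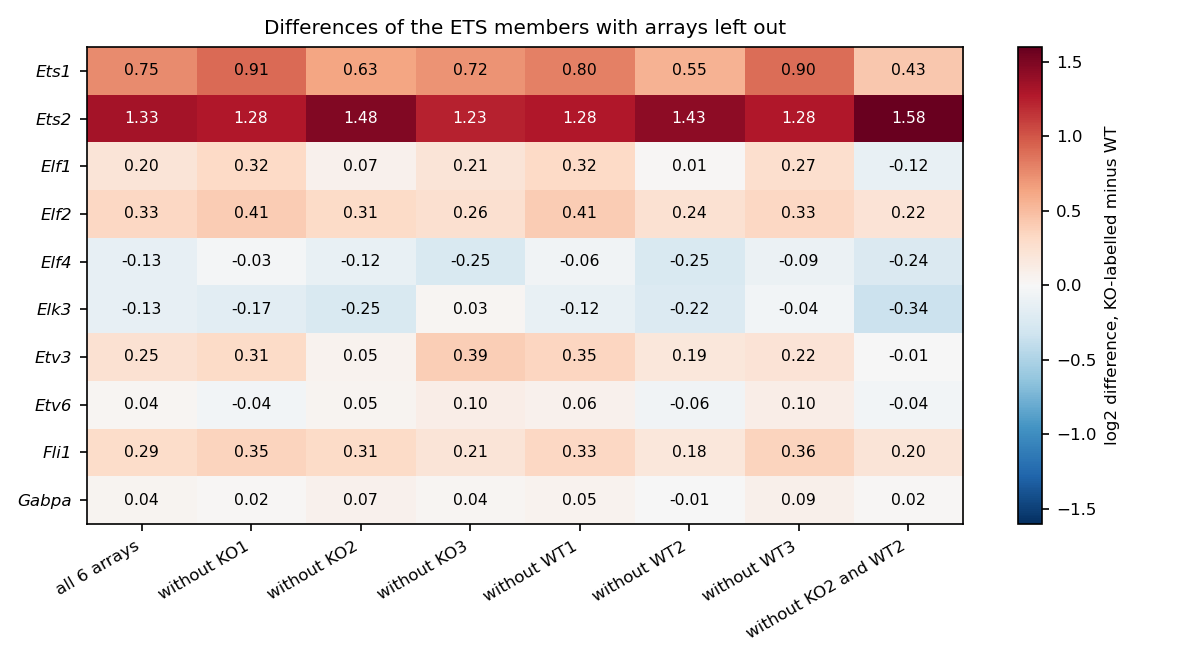
Log2 differences (KO-labelled minus WT) of the 10 members with all 6 arrays and with arrays left out (columns), coloured from blue (lower in KO-labelled) to red (higher). The Ets2 row stays between 1.23 and 1.58, while the Ets1 row runs between 0.43 and 0.91 and is lowest without both arrays numbered 2.

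Of 16 other ETS genes, 15 were on the array and 3 were bright enough to test. Elk4, a ternary complex factor like Elk3, read 8.88, 9.16 and 9.09 on KO-labelled arrays and 8.92, 8.23 and 9.05 on WT arrays, a difference of 0.31 (limma adjusted p = 0.572) with WT2 as the low array. Without WT2 it was 0.06, and without both arrays numbered 2 it was -0.000805. Elk1, of the same subgroup, differed by 0.04 (limma adjusted p = 0.934) and Erf, a repressor that ERK drives out of the nucleus, by 0.01 (limma adjusted p = 0.984). Dim on every array were Erg, Elf3, Elf5, Ehf, Spi1, Spib, Spic, Etv1, Etv2, Etv4, Etv5 and Spdef. Spi1 (PU.1), a defining factor of myeloid and B cells, lay between 3.00 and 3.32 on KO-labelled and between 3.09 and 3.25 on WT arrays.

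Erg is the neighbour of Ets2 on chromosome 16. It read 3.50, 3.64 and 3.42 on KO-labelled arrays and 4.16, 4.23 and 4.09 on WT arrays. These groups did not overlap and ran the opposite way to Ets2, but all 6 values were below the table median, so Erg was not among the genes tested and no fold is given. In a fit of all 19938 genes its limma adjusted p was 0.0793. Psmg1, a proteasome assembly factor on the other side of Ets2, read 8.66, 7.64 and 7.97 on KO-labelled arrays and 7.21, 8.16 and 6.85 on WT arrays. Those groups overlapped through WT2, and the difference of 0.68 did not pass (limma adjusted p = 0.465). Without WT2 it was 1.06 (limma adjusted p = 0.330) and without both arrays numbered 2 it was 1.28 (limma adjusted p = 0.141). Both of these passed the threshold of the study's methods. It was 0.40 without KO1 and 0.41 without WT3, where it did not. Beside Gabpa, Atp5j, a subunit of the mitochondrial ATP synthase, differed by -0.04 (limma adjusted p = 0.951) and App was dim.

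Partners of ETS factors were next described through a list of 17 genes, of which 16 were on the array and 15 tested. At the threshold of the study's methods 2 were higher, Runx1 and Gata3, and 0 lower, where 3.97% of all tested genes were higher and 4.33% lower. The median difference was 0.30 over the list and -0.01 over all tested genes. Centred on each gene's mean, the list averaged 0.15, 0.34 and 0.27 on KO1, KO2 and KO3. On WT1, WT2 and WT3 it averaged -0.17, -0.50 and -0.08, so that the arrays numbered 2 were its extremes. Runx1 read 7.65, 7.42 and 8.22 on KO-labelled arrays and 4.69, 4.45 and 4.64 on WT arrays. The WT arrays were near the table median and the groups far apart, with a difference of 3.17 (SE 0.22, limma adjusted p = 0.00489). Gata3, a factor of the helper lineage, read 8.44, 7.91 and 8.87 on KO-labelled arrays and 7.22, 7.15 and 7.67 on WT arrays, groups that did not overlap, with a difference of 1.06 (limma adjusted p = 0.176). Cbfb, the shared partner of RUNX proteins, differed by -0.02 (limma adjusted p = 0.979). The GABP beta subunits Gabpb1 and Gabpb2 differed by 0.30 and 0.29 (limma adjusted p = 0.525 and 0.450), beside 0.04 for Gabpa. Myb, which binds with Ets1 and Runx1 at T cell receptor enhancers, differed by 1.02 (limma adjusted p = 0.466), with KO2 at 9.48 and WT2 at 6.35 as its extremes. Its difference was 0.57 without KO2, 0.42 without WT2 and -0.03 without both.

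Of 4 helper T cell markers, a cell type that the sort of KO-labelled cells was meant to reduce, 3 were tested. Cd4 and Zbtb7b were higher at the threshold of the study's methods, which 3.97% of tested genes passed upward, and Foxp3 was at -0.32. The study names Cd4 and Zbtb7b among Runx3 targets that earlier work found to change when Runx3 is lost in developing CD8-TC. In resting CD8-TC it reports Runx3 binding at the Cd4 silencer and higher Cd4 expression without Runx3. Cd4 read 6.95, 6.70 and 6.77 on KO-labelled arrays and 5.29, 5.80 and 6.50 on WT arrays (difference 0.95, limma adjusted p = 0.250). Summed linear values of the 4 helper markers were 209.3 to 319.5 on KO-labelled and 169.4 to 219.3 on WT arrays, ranges that overlapped, and Cd40lg did not reach the table median on any array. The part of helper cells in the ETS values was not tested.

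Genes that control ETS proteins, such as kinases and ubiquitin ligases, were described through a list of 11, of which 8 were on the array and tested. In limma 0 passed either threshold and 0 had an unadjusted p under 0.05, with a median difference of 0.13. The smallest unadjusted p was that of Dyrk1a, a kinase encoded on the same chromosome as Ets2, which read 8.69, 8.73 and 9.14 on KO-labelled arrays and 8.61, 8.23 and 8.57 on WT arrays. These did not overlap, and the difference was 0.38 (limma adjusted p = 0.405).

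Genes reported as ETS targets in lymphocytes went both ways. Of 17 listed, 15 were on the array and 12 tested. At the threshold of the study's methods 1 was higher and 1 lower, where 3.97% of all tested genes were higher and 4.33% lower. In limma 0 passed the adjusted p (2 had an unadjusted p under 0.05), and the median was -0.09. Il7r, the IL-7 receptor and a target of Gabpa and Ets1 in mouse T cells, read 10.52, 11.06 and 11.03 on KO-labelled arrays and 7.90, 7.59 and 9.41 on WT arrays. The groups did not overlap, with WT3 well above the other WT arrays, and the difference was 2.57 (SE 0.46, limma adjusted p = 0.0718). The adjusted p was 0.0212 without WT3 and between 0.111 and 0.248 with any other array left out. Beside it in the same fit stood differences of 0.04 for Gabpa and 0.75 for Ets1, which were not tested against it.

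Myc, the growth regulator that ETS factors can activate, read 9.61, 8.90 and 9.17 on KO-labelled arrays and 10.15, 10.11 and 10.23 on WT arrays. The WT arrays were tightly grouped above every KO-labelled array, and the difference was -0.93 (SE 0.20, limma adjusted p = 0.117). Klf2, reported downstream of Elf4 in CD8-TC, differed by 0.04 (limma adjusted p = 0.955). Prf1, the perforin gene that Elf4 serves in mouse cytotoxic cells, was at -0.69 with overlapping groups (limma adjusted p = 0.432). Klf4, Il2 and Ptcra were dim on every array.

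Mitochondrial genes served by Gabpa were 5, all tested, and 0 passed either threshold in limma, while 1 had an unadjusted p under 0.05. All 5 differences were below 0, between -0.55 for Tfb1m and -0.01 for Tfam, with a median of -0.27 beside -0.01 over all tested genes. The list was lowest on KO2 and highest on WT2, at -0.32 and 0.30 around the mean of each gene, and Tfb1m was at -0.29 without WT2 and -0.18 without both arrays numbered 2. The smallest p was that of Cox4i1, a subunit of cytochrome oxidase, which read 9.89, 9.49 and 9.64 on KO-labelled arrays and 10.06, 9.99 and 10.21 on WT arrays. These did not overlap, and the difference was -0.41 (limma adjusted p = 0.312).

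**Figure D4:**
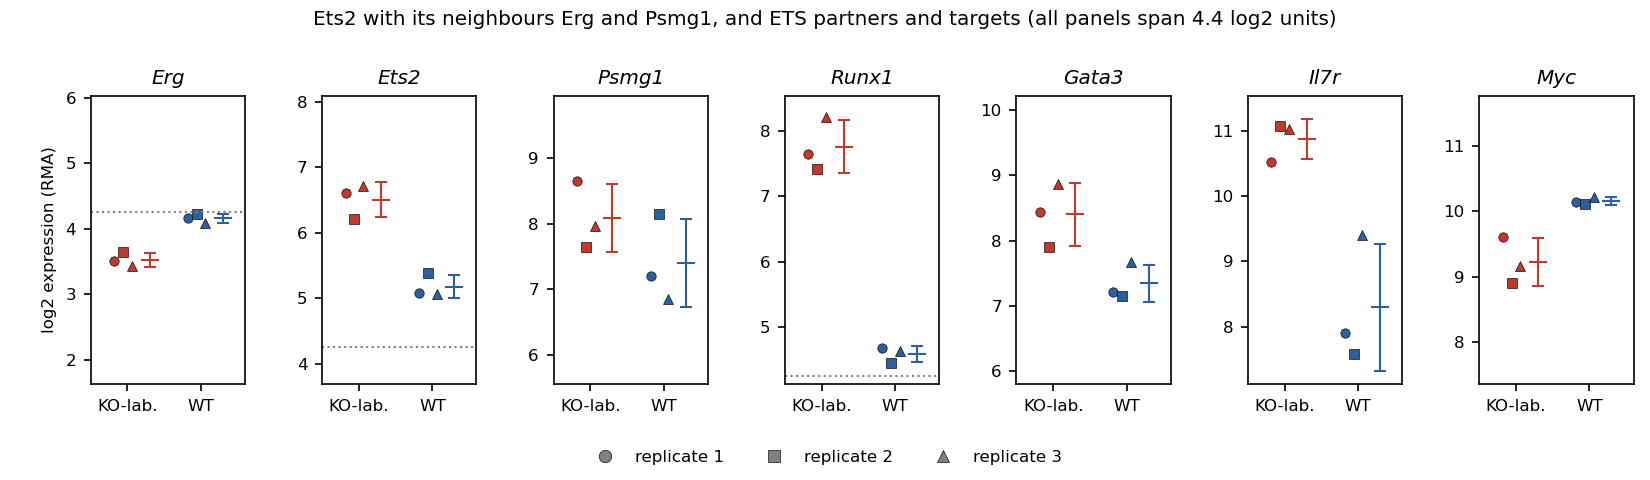
Log2 expression on each array of Ets2 with its neighbours Erg and Psmg1, and of Runx1, Gata3, Il7r and Myc, KO-labelled (red, left) and WT (blue, right), with symbols for replicates, bars for mean and SD (n = 3) and the table median (4.26) as a dotted line where it falls in the panel. Erg lies below the line on all 6 arrays, while Ets2 lies above it on all 6.

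The genes whose course over the 6 arrays was most like that of Ets1 and of Ets2 were found by centring each of 9501 tested genes on its 6-array mean and taking the mean absolute difference from the member. Nearest to Ets1 were Dyrk2 (0.041), Nisch (0.048), Cbl (0.048), Tasor (0.054) and Atf7 (0.058), all with WT2 lowest and KO2 highest. Their differences between the groups lay between 0.63 for Atf7 and 0.79 for Nisch. Nearest to Ets2 were Rgs1 (0.080), Lpcat1 (0.100), Gng12 (0.131), Tnfrsf25 (0.170) and Usp45 (0.191). Rgs1, a brake on chemokine receptor signalling, read 7.08, 6.75 and 7.13 on KO-labelled arrays and 5.78, 5.90 and 5.70 on WT arrays, again with both arrays numbered 2 nearest to the other group. The likeness is a description over 6 arrays that share their group labels.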

How the data were processed

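RNA of cultured CD8-TC was hybridised to Affymetrix mouse gene ST arrays, 3 KO-labelled and 3 WT. The authors normalised the scanner files in Partek with the GC-corrected form of robust multichip average (RMA), and the deposited values are log2 expression per transcript cluster, 1 column per array with no pooling. No source used here gives a version of Partek or RMA. Such summaries compress low values, so changes of dim genes are understated. The small number of arrays also limits precision.

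The table had 35399 rows, of which 21789 were paired with 1 gene symbol, 1621 with several and 11989 with none in the probe table used. A gene was tested if its highest value reached the table median of 4.26. Groups were compared with limma 3.58.1 in R 4.3.3 (lmFit and eBayes, no covariate, two-sided), with Benjamini-Hochberg adjustment over 10021 genes. Differences are KO-labelled minus WT, and p-values measure the spread between these arrays. The fit was tested on simulated data. Promoters and neighbours came from RefSeq tables (GRCm38.p6). Figures were drawn with matplotlib 3.10.9.

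The members and gene lists were chosen with earlier results of these data known. Named were all members, the other ETS genes on the array, the genes past the threshold of the study's methods (or else the one with the smallest p) in each list of partners, regulators and targets, tested neighbours of Ets1, Ets2 and Gabpa, and the 5 genes most like Ets1 and Ets2. Cd4, Zbtb7b, Klrb1c, Ncr1, Itga2, Klre1, Cd79a, Cd79b, Ms4a1, Itgax, Itgam, Cd68, Ly6g, Pecam1, Cdh5, Kdr, Emcn, Cbfb, Gabpb1, Gabpb2, Myb, Foxp3, Cd40lg, Klf2, Klf4, Il2, Ptcra, Prf1, Tfb1m, Tfam, Sugt1 and Cdk17 were picked after their values were seen. Alternatives were the scaling, the filter, the rows of a gene, the priors, array weights, the G2/M covariate, the replicate block, and left-out arrays.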

Additional observations from a re-analysis of the deposited data

How the results depend on the processing

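Ets2 was higher in KO-labelled cells in 17 of 17 alternative fits (log2 difference 1.23 to 1.58) and passed the threshold of the study's methods in all 17, but an adjusted p of 0.05 in 7. Its limma adjusted p was 0.0562 after quantile normalization, 0.0674 with array medians subtracted, 0.0702 with no filter, 0.270 with an unmoderated model and 0.00196 with array weights. Ets1 was higher in all 17 fits (0.43 to 0.91), with adjusted p from 0.0578 to 0.560, and passed the threshold of the study's methods in 15. For both genes, fits that changed only the filter, the rows of a gene, the prior or the replicate block could not move the difference. Such fits bear on its p and not on its sign. No source used here says whether the replicate numbers pair the arrays. Deviations from the group means correlated at -0.131, -0.369 and -0.133 between arrays of the same number, which cannot show whether mice were paired. With the replicate number as a block, 1 gene (Tspan32) passed the adjusted p, and Ets2 had an adjusted p of 0.235. The count of genes past the adjusted p was 63, and 36 with no filter, 0 with the unmoderated model (1173 at an unadjusted p under 0.05), 547 with array weights and 9 to 67 with an array left out, lowest without KO3. It was 27 without KO2, 17 without WT1, 26 without WT2 and 11 without WT3. The count at the threshold of the study's methods was 832, and 508 with the unmoderated model and 651 to 1258 with an array left out, highest without KO1. Of these calls 47.8% were higher, 40.9% after quantile normalization and 37.9% with array medians subtracted, where the median of all genes was -0.06 and -0.09. Members past that threshold numbered 2, and 1 without WT2 or without both arrays numbered 2. The median difference of the members was 0.23, and 0.0157 with array weights, 0.00465 without both arrays numbered 2 and 0.0711 to 0.326 with an array left out, lowest without KO2. The sign turned for Etv6 with quantile normalization (-0.0626), array medians (-0.0331), array weights (-0.0817) and without both arrays numbered 2 (-0.0438), for Gabpa with array medians (-0.0258), for Elf1 with array weights (-9.8e-05) and without both arrays numbered 2 (-0.12), and for Etv3 in the same fits (-0.0412 and -0.0121). With an array left out, the differences ran between -0.0569 and 0.101 for Etv6, between -0.247 and 0.0343 for Elk3 and between -0.00904 and 0.0853 for Gabpa. Among the genes beside the members, Runx1 lost its call with the replicate block (adjusted p = 0.0742) and the unmoderated model (0.200), and with array weights Il7r (0.0138), Gata3 (0.0145) and Myc (0.0141) passed. The cause was not tested.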

Other observations

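Among the nearest protein-coding genes beside the 10 ETS members, 18 were not members, 17 were on the array and 11 were tested, and 0 passed an adjusted p of 0.05 in limma, while 2 had an unadjusted p under 0.05. At the threshold of the study's methods 1 was lower and 0 higher, where 4.33% of all tested genes were lower and 3.97% higher. The lower one was Sugt1, a chaperone adaptor beside Elf1 on chromosome 14, which read 7.99, 7.22 and 8.03 on KO-labelled arrays and 8.66, 8.57 and 8.58 on WT arrays. Its groups did not overlap, and the difference was -0.86 (limma adjusted p = 0.200), beside 0.20 for Elf1. Cdk17, a kinase gene beside Elk3 on chromosome 10, read 8.51, 9.06 and 8.83 on KO-labelled arrays and 8.34, 8.01 and 8.46 on WT arrays. Its groups did not overlap either, and the difference was 0.53 (limma adjusted p = 0.309), beside -0.13 for Elk3.

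Elf4 had a second array row, which read between 3.10 and 3.28 over the 6 arrays, below the table median, and showed a difference of 0.00.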
